A study of Rattus norvegicus with 24 samples.

Results

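Chordc1 and the 100 genes whose levels followed it most closely across the newborn rat cortex are described here. Members were selected on their correlation with Chordc1: of 26404 genes, the 10313 autosomal genes with at least 5 CPM (counts scaled to a common library total) in all 24 pups were ranked by Pearson r of log2(CPM + 0.5) with Chordc1. The 50 genes with the highest r (high side) and the 50 with the lowest r (low side) were taken, which with Chordc1 makes 101 genes. The choice used all 24 pups, so r, the course of the members over litters and the direction of their differences between groups are given as description.

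Chordc1 (CHORD-containing protein 1, also called Morgana) is a cochaperone that binds HSP90 through zinc-binding CHORD domains and a CS domain. HSP90 is an abundant ATP-driven chaperone that completes the folding of kinases, steroid receptors and other client proteins, and its cochaperones set the pace of that cycle or bring clients to it. Many chaperone genes are induced by heat shock factor 1 (HSF1), which binds arrays of GAA and TTC units called heat shock elements.

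The libraries came from 24 Sprague Dawley pups, collected on postnatal day 0 within hours of birth, and were made from right cerebral cortex RNA with an integrity number above 9.5. In the saline pump group, 12 pups came from 3 dams that had a saline-filled pump implanted under isoflurane at E18, and in the spontaneous labor group 12 pups came from 3 dams that delivered without surgery. From each dam 2 males and 2 females were taken, and the litter of each pup was read from its file label. Surgery, anesthesia, the pump and the buprenorphine and antibiotic described for implantation came together, so their parts cannot be told apart. Pups of the same litter share a dam, which limits the comparison of conditions to 3 litters per group. Libraries held 12170547 to 19260066 counted reads. Gene symbols were in hand for 740 of the 10313 genes (7.18%) and for 32 of the 101 members (31.7%). These symbols come from the study's lists of genes with small p-values in female pups, so the named members are a selected subset. Other genes are given by Ensembl identifier. Of the 10 projection neuron markers and 9 interneuron markers sought to check the tissue, 0 had an identifier, so the cortical label was not checked here.

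The promoters of Chordc1 and of the named member with the largest absolute r on each side that had a promoter record (Prpf4b on the high side, Dnpep on the low side) are shown because members that move together invite a look at shared promoter letters. Each is the 250 bases before the start site in RefSeq (assembly GRCr8), with CCAAT boxes (CCAAT or ATTGG) and GC boxes (GGGCGG or CCGCCC) in capitals. They lie at chr8:23650571-23650820 (plus strand), chr17:30224921-30225170 (minus strand) and chr9:84257452-84257701 (minus strand), in that order.
Chordc1: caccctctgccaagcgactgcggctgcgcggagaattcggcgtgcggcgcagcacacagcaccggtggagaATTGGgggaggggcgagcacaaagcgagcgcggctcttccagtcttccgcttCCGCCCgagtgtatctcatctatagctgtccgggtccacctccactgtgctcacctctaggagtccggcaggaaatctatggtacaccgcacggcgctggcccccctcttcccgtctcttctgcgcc
Prpf4b: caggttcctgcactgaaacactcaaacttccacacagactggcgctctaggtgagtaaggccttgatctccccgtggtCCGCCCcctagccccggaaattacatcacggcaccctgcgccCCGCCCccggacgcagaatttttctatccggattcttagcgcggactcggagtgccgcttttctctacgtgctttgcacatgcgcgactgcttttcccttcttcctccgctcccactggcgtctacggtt
Dnpep: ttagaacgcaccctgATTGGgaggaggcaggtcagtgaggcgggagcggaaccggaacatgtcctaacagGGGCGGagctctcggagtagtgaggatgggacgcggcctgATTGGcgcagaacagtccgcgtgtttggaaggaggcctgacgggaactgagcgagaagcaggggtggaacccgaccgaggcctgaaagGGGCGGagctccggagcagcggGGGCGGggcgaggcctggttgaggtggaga
The Chordc1 window held 1 CCAAT box at -179 to -175 and 1 GC box at -127 to -122, counted from the start site. Neither form of a 3-unit heat shock element (GAANNTTCNNGAA or TTCNNGAANNTTC, with 2 bases between units) was in this window. Promoters were found by gene number for 14 named high-side genes and 11 named low-side genes. The 3-unit element was in 0 of the 14 and 0 of the 11 windows, beside 4 of 608 named genes under the rule (0.658%) and 164 of 27457 promoters in all (0.597%). CCAAT boxes were in 5 of 14 high-side and 4 of 11 low-side windows, beside 37.5% of the named genes and 34.3% of all promoters. GC boxes were in 7 of 14 and 7 of 11 windows, beside 61.8% of the named genes and 32.4% of all promoters. TATA boxes (TATAAA or TTTATA) were in 0 of 14 and 2 of 11 windows, beside 6.74% and 13.1%. Median GC content was 60.8% on the high side, 63.2% on the low side, 60.4% over the named genes and 52% over all promoters. Absence of a match says only that these letters are not in these 250 bases.

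Chordc1 (ENSRNOG00000026643, Rnor_5.0 chr8:17494921-17518882, plus strand, 11 annotated exon blocks) differed between litters of the same condition. In saline pump litter 1 its level was 18.2 and 16.4 CPM in the males and 17.9 and 18.3 CPM in the females. Saline pump litter 2 gave 20.3, 19.5, 23.8 and 16.1 CPM and saline pump litter 3 gave 28.0, 23, 23.9 and 31.3 CPM, in the same order. Pups of spontaneous labor litter 1 had 35.8, 36.9, 36.4 and 37.9 CPM. All 4 pups of this litter, of either sex, thus lay above the other 20 pups. Spontaneous labor litter 2 gave 16.3, 18.6, 18.6 and 21.8 CPM, and spontaneous labor litter 3 gave 23.2, 19.8, 24.7 and 25.4 CPM. Litter means therefore ran from 17.7 ± 0.911 CPM (SD, n = 4 pups) in saline pump litter 1 to 36.7 ± 0.874 CPM in spontaneous labor litter 1. Next below the latter was saline pump litter 3, with 26.6 ± 3.87 CPM. The values of saline pump litters 1 and 2 and of spontaneous labor litter 2 overlapped. These values rest on 225 to 551 reads per pup. By condition, Chordc1 was at 21.4 ± 4.74 CPM (SD, n = 12 pups) in saline pump and 26.3 ± 8.17 CPM in spontaneous labor, and both groups spanned low and high litters.

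**Figure D1:**
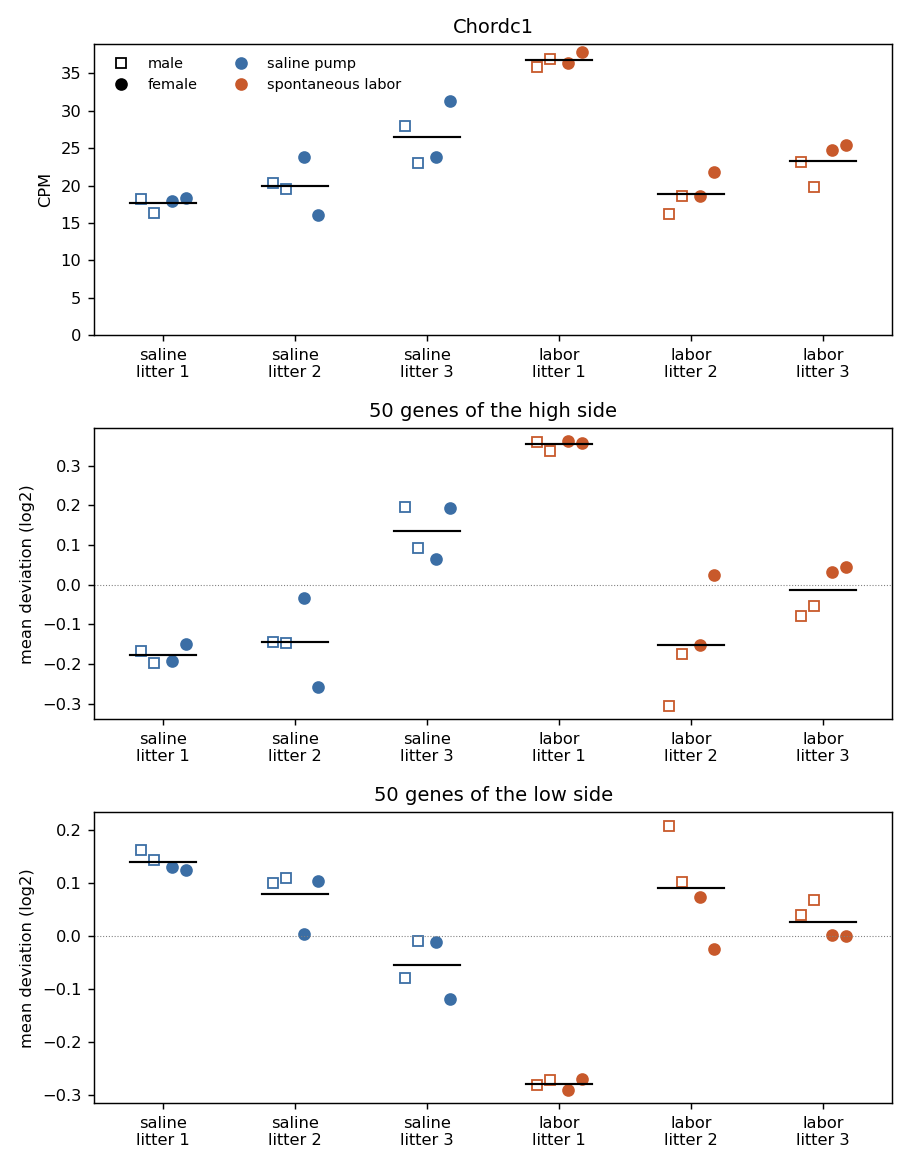
Chordc1 level in CPM (top) and the mean over the 50 high-side (middle) and 50 low-side genes (bottom) of each gene's log2(CPM + 0.5) minus its mean over 24 pups, for each pup by litter. Open squares are males, filled circles are females and black lines are litter means; the 4 pups of spontaneous labor litter 1 lie above the other 20 pups in the top 2 panels and below them in the bottom panel.

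The high side had r from 0.891 to 0.953 (median 0.904), and the low side from -0.951 to -0.845 (median -0.870). Just inside the high limit was Gpr89b at 0.891, with 0.890 just outside. Just inside the low limit r was -0.8450, and just outside it Anapc13 stood at -0.8448. Neither limit falls at a gap, and the members are the ends of a broad distribution: 2242 genes (21.7%) had r above 0.5 and 1335 genes (12.9%) had r below -0.5. That members of one side follow each other and run against the other side is fixed by these limits. The median r was 0.863 over 1225 pairs within the high side, 0.815 within the low side and -0.825 over 2500 pairs between the sides.

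Members of the high side were highest in spontaneous labor litter 1, and second in saline pump litter 3 for 47 of 50 genes. Averaged over the 50 genes, log2 levels in the 4 pups of spontaneous labor litter 1 were 0.34 to 0.36 above the mean of all pups. Saline pump litter 3 lay 0.06 to 0.20 above it, and spontaneous labor litter 3 lay around it, from -0.08 to 0.04. The lowest values were -0.20 to -0.15 in saline pump litter 1, -0.26 to -0.03 in saline pump litter 2 and -0.31 to 0.02 in spontaneous labor litter 2. The last 3 litters overlapped, and 1 of them is a spontaneous labor litter. Spontaneous labor litter 1 was the highest litter for 50 of 50 high-side genes, beside 30.6% of all genes under the rule. Its 4 pups all lay above the other 20 pups for 34 of the 50 genes, beside 3.59% of all genes under the rule. Since the rule chose genes that follow Chordc1, for which that litter stands apart, these counts describe the choice.

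**Figure D2:**
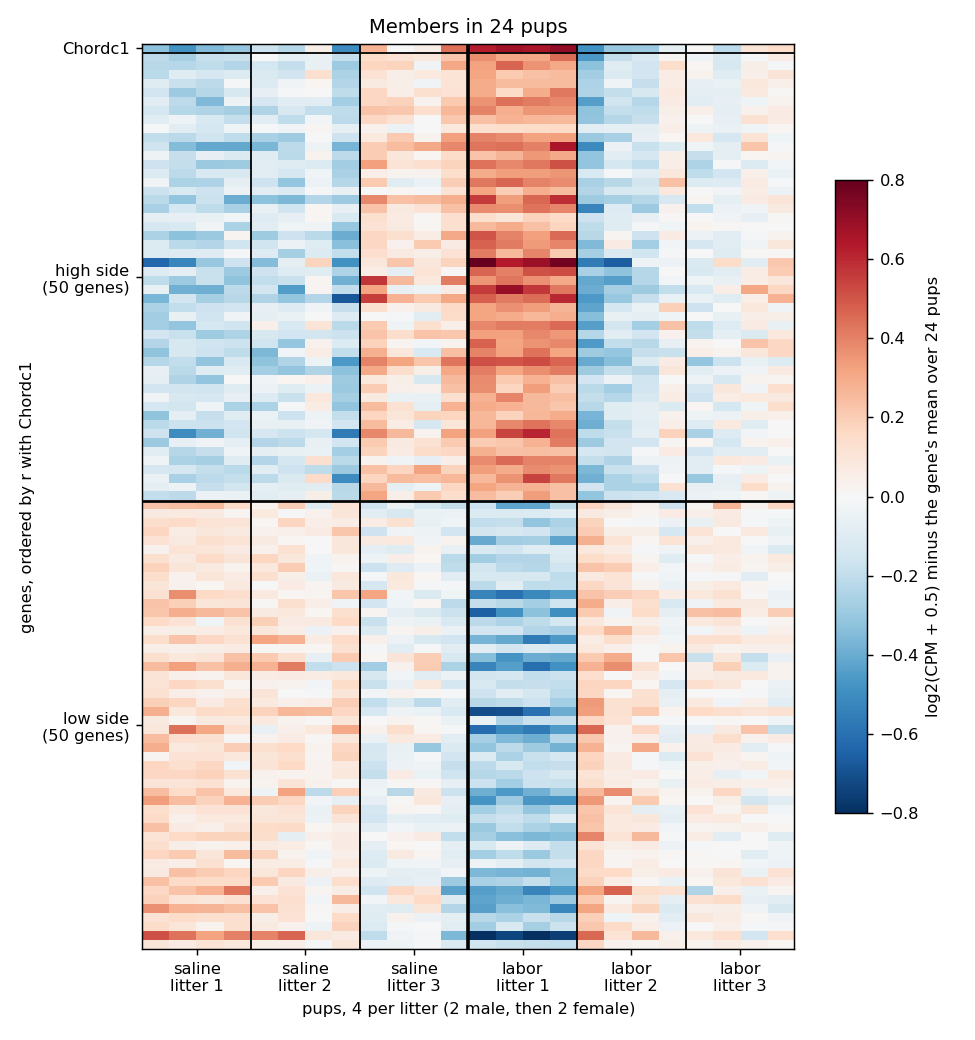
Each row is 1 gene and each column 1 pup; color is log2(CPM + 0.5) minus the gene's mean over 24 pups, capped at 0.8 in either direction. Rows run from Chordc1 through the 50 high-side genes to the 50 low-side genes, and the columns of spontaneous labor litter 1 are red in the upper and blue in the lower block.

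The high-side gene nearest to Chordc1 was ENSRNOG00000004185 (r = 0.953, chr7:66915094-66990456), whose symbol was not in hand. Its level was 57 to 62.8 CPM in spontaneous labor litter 1 and 33.2 to 53.6 CPM (median 43.8) in the other 20 pups, without overlap. The named high-side genes fall into a few kinds of protein, given as background and not tested for enrichment. Prpf4b, Srsf10 and Zfp638 encode a splicing kinase, a splicing factor of the SR family and a zinc finger protein of nuclear speckles. Prpf4b (r = 0.935, chr17:32583633-32614446) was at 68.5 to 94.1 CPM (median 81.7) in saline pump and 71.1 to 113 CPM (median 86.6) in spontaneous labor, and the groups overlapped. Srsf10 (r = 0.905, chr5:157970240-157978639) was at 36.7 to 39.8 CPM in spontaneous labor litter 1 and at 22 to 31.8 CPM (median 25.8) elsewhere. Zfp638 (r = 0.915) was at 136 to 148 CPM in that litter and 83.8 to 131 CPM elsewhere. Srsf10 and Zfp638 thus set that litter apart, while Prpf4b, at 93.6 to 113 CPM against 68.5 to 94.1 CPM, did not.

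A second kind were proteins of ubiquitin ligases. Klhl7, an adaptor of a cullin ligase, had r = 0.913 and 162 to 173 CPM in spontaneous labor litter 1, against 101 to 147 CPM (median 116) in the other 20 pups. Ltn1, the ligase that marks stalled nascent chains on ribosomes, was at 67.2 to 71.7 CPM against 41.3 to 63.5 CPM. The ligase Trim23 gave 72.6 to 79.1 CPM against 52.1 to 70.3 CPM, and the endoplasmic reticulum ligase Tmem129 gave 15.9 to 19 CPM against 8.22 to 15.7 CPM. None of these 4 genes had an overlap between that litter and the rest.

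Membrane and organelle proteins formed a further kind. Pip4p2, a phosphoinositide phosphatase, had the largest r of the named genes (0.948, chr5:33079533-33126619) and was at 61.3 to 68.6 CPM in spontaneous labor litter 1, against 39.5 to 61.5 CPM (median 45.8). Rhot1, the mitochondrial GTPase that couples mitochondria to motor proteins, was at 54.9 to 57.1 CPM against 37.1 to 49.1 CPM. Scyl2, of clathrin-coated vesicles, was at 77.0 to 80.4 CPM against 50.2 to 71.9 CPM. Of these, Pip4p2 overlapped slightly and the other two did not. Zbtb11 and Zbtb4 (zinc finger transcription factors), Rb1 (the retinoblastoma cell cycle regulator), Nup205 (a nuclear pore scaffold protein), Gpr89b (a Golgi ion channel) and Ammecr1l complete the named high side, with r from 0.891 to 0.924. In spontaneous labor litter 1, Rb1 was at 47.7 to 58.1 CPM against 25.5 to 49.7 CPM elsewhere, and Nup205 at 63.0 to 66.7 CPM against 39.8 to 64.1 CPM, both with overlap.

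Members of the low side ran the other way, with smaller steps. The mean of their log2 levels in spontaneous labor litter 1 was -0.29 to -0.27 from the mean of all pups. Saline pump litter 3 followed at -0.12 to -0.01, and the highest litter was saline pump litter 1, at 0.12 to 0.16. Spontaneous labor litter 2 spanned -0.03 to 0.21, and spontaneous labor litter 3 ran from just under 0 to 0.07. Spontaneous labor litter 1 was the lowest litter for 50 of 50 genes, beside 22.3% of all genes under the rule. Its 4 pups all lay below the other 20 pups for 30 of 50 genes, beside 1.69% of all genes. Saline pump litter 1 was the highest litter for 37 of the 50, spontaneous labor litter 2 for 8 and saline pump litter 2 for 5.

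The gene farthest from Chordc1 was ENSRNOG00000000697 (r = -0.951, chr12:50264710-50337012), with 385 to 397 CPM in spontaneous labor litter 1 and 409 to 496 CPM (median 455) in the other 20 pups. Chromatin proteins stood among the named low-side genes. H1fx, a linker histone variant (r = -0.919, chr4:185137082-185137660), was at 45.5 to 52 CPM in that litter and at 55.7 to 84.9 CPM (median 68.8) elsewhere, without overlap. The gene listed as H3f3a, for the replacement histone H3.3, was at 420 to 477 CPM against 526 to 742 CPM (r = -0.879, chr10:103709482-103711708). Its label is uncertain, since RefSeq gives the same gene number to H3f3b. Reads that also match a near-identical histone gene would be left out, since only unique reads were counted.

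Cell structure and RNA proteins were a second kind on the low side. Mapt, the axonal microtubule protein tau, was at 827 to 947 CPM in spontaneous labor litter 1 and 947 to 1102 CPM in the other 20 pups, so that the ranges nearly met. Vim, the intermediate filament of radial glia, was at 362 to 404 CPM against 476 to 592 CPM (median 510). Basp1, a growth cone protein, was at 730 to 781 CPM against 760 to 998 CPM. The helicase Ddx24 (r = -0.921) was at 123 to 130 CPM against 137 to 167 CPM, and the poly(A)-binding protein Pabpc4 at 55.2 to 60.3 CPM against 66.0 to 77.9 CPM. Vim, Ddx24 and Pabpc4 had no overlap, whereas Basp1 did.

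Dnpep, an aspartyl aminopeptidase, had the lowest r of the named genes (-0.924, chr9:82274791-82283660) and was at 150 to 167 CPM against 169 to 211 CPM. Ppp2r3b, a regulatory subunit of protein phosphatase 2A, was at 40.7 to 44.5 CPM against 50.3 to 65.6 CPM (r = -0.905). Both were lower in each pup of spontaneous labor litter 1 than in any other pup. Scamp4 (secretory carrier membrane), Lrrc59 and Emc10 (endoplasmic reticulum membrane), Mgrn1 (a ubiquitin ligase), Zfp628 (a zinc finger protein) and C1qc complete the named low side. Their r lay between -0.886 and -0.851.

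C1qc, a subunit of complement C1q made in the brain by microglia, had r = -0.870 and was at 16.5 to 18.6 CPM in spontaneous labor litter 1 and 22.4 to 35.4 CPM (median 27.0) in the other 20 pups. In bulk tissue, fewer cells of a type and less RNA per cell cannot be told apart. C1qc was 1 of 9 microglial markers with an identifier, and Vim was 1 of 10 markers of radial glia and progenitors. Cldn5, 1 of 8 endothelial markers, was at 48.8 to 60.0 CPM in that litter against 53.0 to 72.7 CPM. The astrocyte marker Aqp4 had r = 0.37. Summed levels of 4 of 8 red blood cell markers were 23 to 26.5 CPM in that litter against 22.4 to 53.9 CPM. No list with an identifier had a summed level of 0. Whether cell composition had a part in the pattern was not tested.

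In each measure of the libraries, spontaneous labor litter 1 overlapped the other 20 pups. Mitochondrial genes took 5.58% to 6.44% of its counts against 4.74% to 6.25%. The 100 top genes took 18.8% to 19.6% against 18.9% to 20.3%. Total counts were 14053860 to 15155381 against 12170547 to 19260066. Genes with at least 1 count numbered 17595 to 17956 against 17883 to 18190, so that 3 of its 4 pups lay below the other 20 pups and 1 overlapped. By litter mean, the mitochondrial share was 5.95% in spontaneous labor litter 1 and 5.94% in saline pump litter 3, where the high side was highest. It was 5.0% to 5.62% in the other 4 litters. The share was lowest in spontaneous labor litter 3, where the high side was highest of the 4. It was highest of the 4 in spontaneous labor litter 2, where only saline pump litter 1 had a lower high side. Within saline pump litter 3, the pups with shares of 6.25% and 6.22% had high-side means of 0.196 and 0.192. Its pups with 5.82% and 5.48% had 0.092 and 0.065. Within spontaneous labor litter 1, the pup with the largest share, 6.44%, had the lowest high-side mean, 0.336. The part of these measures in the result was not tested.

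The r of the members with Chordc1 was also taken without spontaneous labor litter 1 and within litters, in pups that had all entered the choice. Over the other 20 pups, r had a median of 0.80 (0.69 to 0.91) on the high side and of -0.72 (-0.88 to -0.57) on the low side. Using each pup's deviation from its litter mean, the median was 0.61 (0.37 to 0.82) on the high side and -0.52 (-0.85 to -0.12) on the low side, and 0.00 over all genes under the rule. Differences between litters made up a median of 81.2% of the variance of high-side genes and 78.6% of that of low-side genes, beside 44.1% over all genes. Since the rule chose genes that follow Chordc1, which itself differed between litters, these shares describe the choice. When the choice was repeated without spontaneous labor litter 1, 23 of the 50 high-side and 19 of the 50 low-side genes were chosen again. With deviations from litter means 16 and 5 were.

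**Figure D3:**
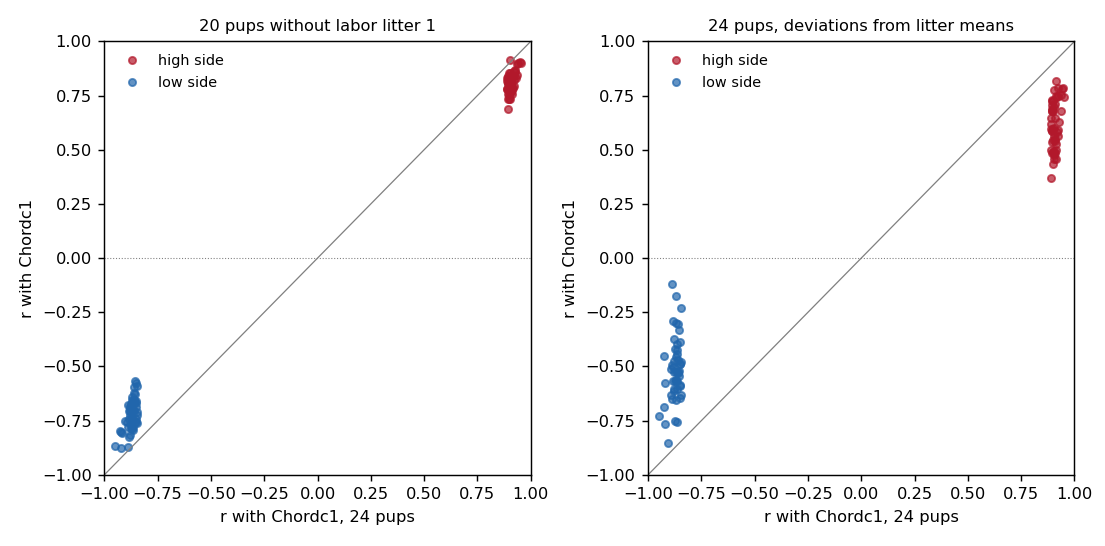
Pearson r with Chordc1 of the 50 high-side and 50 low-side genes over 24 pups (horizontal) against r over the 20 pups without spontaneous labor litter 1 (left) and r of deviations from litter means (right). The gray line marks equal values; points keep their sign, and apart from 1 point on the left they lie nearer to 0.

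The rule named no gene structure, and named level only in the limit of 5 CPM, and the sides differed in both. A ranking by r can itself depend on how many reads a gene has, which rises with level and length. Neither property is thus fully independent of the choice. Mean CPM had a median of 48.2 on the high side, 165 on the low side and 40.1 over all genes under the rule. High-side genes had a median exonic length of 4440 bp, beside 1684 bp on the low side and 2279 bp over all genes under the rule. On the high side 44 of 50 genes were longer than the median of all genes, and on the low side 15 of 50 were. Genomic span had medians of 52800, 10843 and 22626 bp for the high side, the low side and all genes, and the number of exon blocks had medians of 15, 8.5 and 9. Levels per length ran opposite: mean RPKM (CPM per kilobase of exons) had a median of 12.8 on the high side, 99.9 on the low side and 18.0 over all genes. On the low side 44 of 50 genes lay above the median RPKM of all genes, and on the high side 12 of 50. Basp1, at 1290 RPKM with 663 bp of exons, and H1fx, a 1-exon gene of 579 bp, are low-side examples. Nup205, at 8.32 RPKM with 6230 bp and 43 exon blocks, and Ltn1, at 8.27 RPKM with 6779 bp, are high-side examples. RPKM is divided by length, so the measures are not independent. Exonic lengths are those of the annotation, and whether its gene models hold whole transcripts was not checked. When the sides were chosen again by deviations from litter means, median RPKM was 20.9 on the high side, then above the 18.0 of all genes, and 36.8 on the low side.

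The relation ran across all genes under the rule. When the genes were put in 10 equal groups by exonic length, the median r with Chordc1 was -0.25 in the shortest group (77 to 993 bp) and 0.33 in the longest (4860 to 27611 bp), and it rose at each step. By mean RPKM, the median r was 0.20 in the lowest group and -0.42 in the highest, which held 29 of the 50 low-side genes and 0 of the high side. By genomic span, median r rose from -0.17 in the shortest group to 0.31 in the group of 44695 to 67808 bp. It then fell to 0.18 in the group of longest span. Across 10312 genes, Spearman's rho with r was 0.32 for exonic length, 0.25 for span, 0.17 for exon blocks and -0.31 for RPKM. Genes are not independent replicates, and all r share the same libraries. Without spontaneous labor litter 1 these rho were 0.42, 0.33, 0.21 and -0.39, and with deviations from litter means 0.33, 0.33, 0.18 and -0.24. Genes were also split in 3 by length and in 3 by RPKM. Among the most highly expressed genes by RPKM, median r was -0.30 for the shortest (1641 genes), -0.09 for the middle (1002 genes) and 0.12 for the longest (795 genes). Among genes of middle RPKM the same values were -0.003, 0.23 and 0.37, and among those of the lowest RPKM 0.12, 0.19 and 0.32. Median r thus rose with length at each of the 3 levels, whereas it fell from middle to high RPKM at each length but did not fall from low to middle RPKM in the middle and longest genes.

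**Figure D4:**
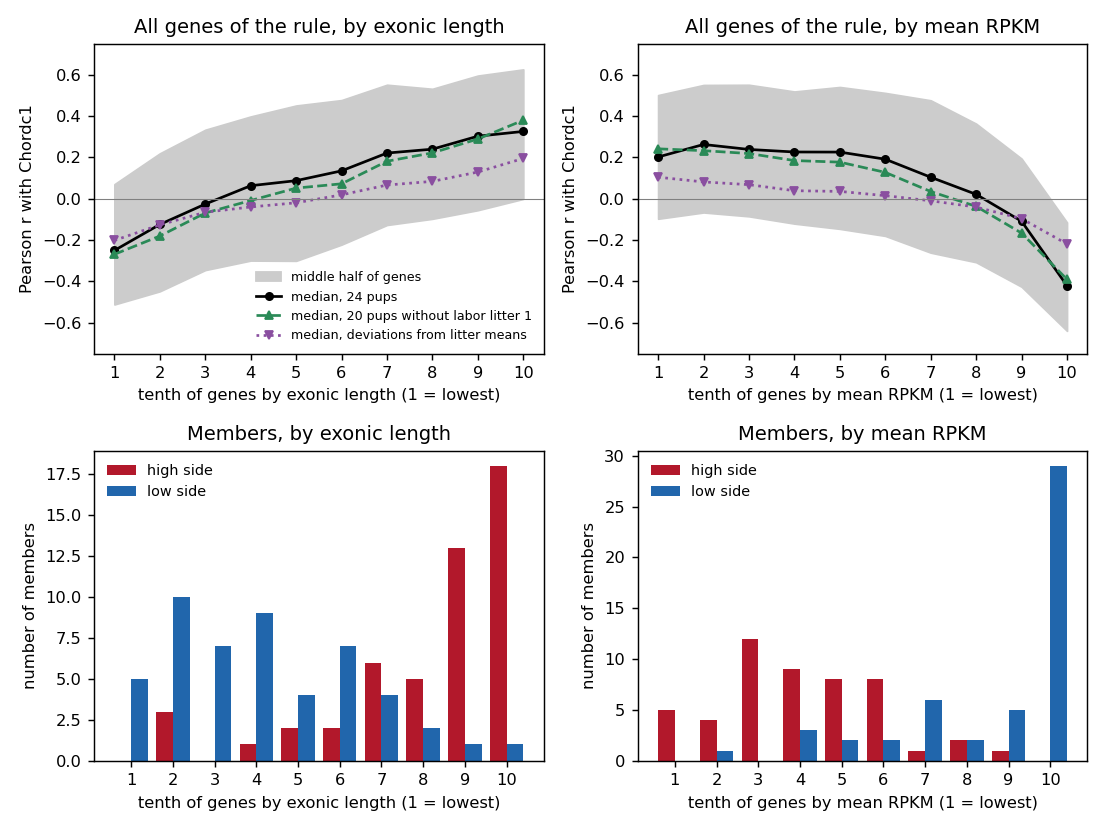
Top, Pearson r with Chordc1 over 10312 genes in 10 equal groups by exonic length (left) or mean RPKM (right): the band holds the middle of the genes from the lower to the upper quartile, and lines give medians over all pups, without spontaneous labor litter 1 and for deviations from litter means. Bottom, the number of high-side and low-side members in each group; 18 high-side genes are in the longest group and 29 low-side genes in the group of highest RPKM.

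Members were spread over the genome, the high side over 16 and the low side over 18 chromosomes. On the high side 1 pair of neighbors lay within 1 Mb, formed by Zbtb11 and a gene 51567 bp away on chromosome 11. On the low side there were 8 such pairs. A run of 5 pairs lay around Scamp4 (chr7:12137246-12149666), with gaps of 31794 to 563724 bp, and another pair was H1fx and a gene 49817 bp away on chromosome 4. The same count was not made for other sets of genes under the rule, so the pairs are description only.

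Genes of the pathway itself could be followed only in small part. Of 31 HSP90 and cochaperone genes, only Chordc1 carried an identifier, so its partners were not analysed here. Of 43 HSF1 and heat shock genes, 4 did, and 0 were members: Ubb (polyubiquitin) had r = -0.72, Zfand2a -0.40 and the autophagy receptor Sqstm1 -0.29, and the cochaperone Bag3 was under the limit of expression. Summed levels of these 4 were 903 to 978 CPM in spontaneous labor litter 1 and 939 to 1138 CPM in the other 20 pups, a sum made up mostly of Ubb (579 CPM) and Sqstm1 (370 CPM). Bag3, at 6.43 CPM in the mean, was second highest of the 6 litters in spontaneous labor litter 1 by litter mean, and Ubb was lowest there. Of 24 genes of the unfolded protein response, 4 had identifiers, with r of -0.55 for the chaperone Calr, -0.49 for the transcription factor Atf4, -0.40 for Herpud1 and -0.20 for Dnajb11. Of 16 hypoxia-responsive genes, the demethylase Kdm3a had r = 0.75 and P4ha1 had r = 0.50. Their summed level was 60.3 to 62.2 CPM (median 62.0) in spontaneous labor litter 1 and 44.3 to 65.3 CPM (median 51.9) in the other 20 pups. The immediate early genes Fos, Fosb and Npas4 (3 of 19) were below the expression limit in some pups. Their summed level was 6.19 to 8.75 CPM in spontaneous labor litter 1 and 8.58 to 38.2 CPM elsewhere. Of 18 clock genes 1 (Ciart) had an identifier, and of 16 glucocorticoid-responsive and 2 cold-inducible genes 0 had one. None of the genes of these lists passed the test of condition.

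The study asked whether surgery and anesthesia in late gestation change the newborn cortical transcriptome. Neither Chordc1 nor any member passed the threshold between the conditions, which with 3 litters per group does not show that they were alike. Counts were summed per litter and 3 litters were compared with 3 by edgeR's quasi-likelihood test over 14348 genes, with Benjamini-Hochberg adjustment. Chordc1 had a log2 fold change of 0.29 (spontaneous labor minus saline pump; SE 0.215, unadjusted p = 0.207, adjusted p = 0.99992). The median log2 fold change was 0.12 (0.03 to 0.35) on the high side and -0.09 (-0.31 to -0.02) on the low side, beside 0.00 over all genes. At an adjusted p of 0.05, 0 of 100 members were called, beside 0% of all genes tested. At an unadjusted p under 0.05, 0 of 100 members were called, beside 1.67% of all genes (240 genes), and the smallest unadjusted p was 0.128 on the high side and 0.125 on the low side. All 50 genes of each side had the sign of their side. Chordc1, which chose them, was itself higher in the mean of the spontaneous labor pups, so these signs are not an independent result.

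The sign of this difference rested on a single litter. Without spontaneous labor litter 1 the fold change of Chordc1 was -0.02, and the medians were -0.02 on the high side (18 of 50 above 0) and 0.01 on the low side (32 of 50 above 0). Leaving out spontaneous labor litter 2 or saline pump litter 3 brought the high-side median to 0.21 either way, with 13 and 6 members at an unadjusted p under 0.05. Surrogate variables for unknown effects are part of the study's methods. In a fit of 24 pups with 6 such variables, Chordc1 was at 0.06, the high side at a median of 0.02 and the low side at -0.02. There 7 members had an unadjusted p under 0.05. Without surrogate variables 24 members did, but both of these fits take pups of one litter as independent. In none of the fits of this paragraph was the share of all genes with an unadjusted p under 0.05 taken.

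**Figure D5:**
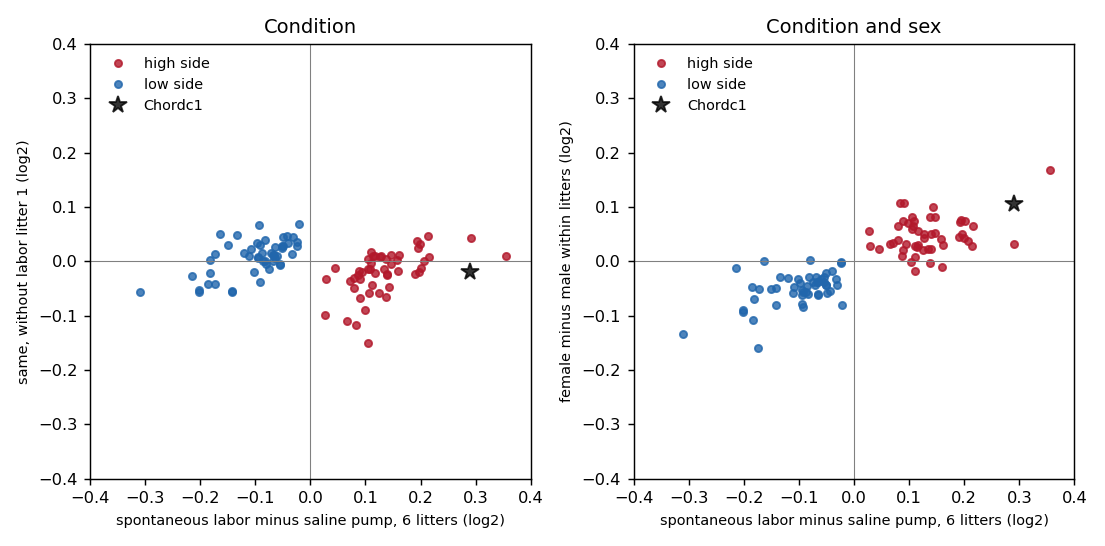
Log2 fold change of each member and of Chordc1 (star) between conditions over 6 litters (horizontal), against the same without spontaneous labor litter 1 (left) and against female minus male within litters (right). Without that litter, high-side values run from -0.15 to 0.05 and low-side values from -0.06 to 0.07, on both sides of 0.

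Sex was compared within litters (12 female against 12 male pups, edgeR's quasi-likelihood test with litter as a block). Chordc1 was 0.11 higher in females on the log2 scale (SE 0.058, unadjusted p = 0.083, adjusted p = 0.564). No member was called at an adjusted p of 0.05, beside 0.0488% of all genes tested (7 genes), and the smallest adjusted p was 0.368 on the high side and 0.344 on the low side. At an unadjusted p under 0.05, 3 high-side genes (each higher in females) and 10 low-side genes (each lower in females) were called, beside 9.49% of all genes. Among them were Prpf4b (0.07, SE 0.034, adjusted p = 0.515), H1fx (-0.09, SE 0.042, adjusted p = 0.516), the gene listed as H3f3a (-0.09, SE 0.037, adjusted p = 0.476) and Pabpc4 (-0.08, SE 0.026, adjusted p = 0.394). The median was 0.04 on the high side, with 46 of 50 genes above 0, and -0.05 on the low side, with 48 of 50 below 0. Deviations within litters also entered r, so these signs are not independent of the sign in Chordc1. Without spontaneous labor litter 2, the 13 members with an unadjusted p under 0.05 became 6. When condition was the only covariate, 0 members had an unadjusted p under 0.05. The share of all genes was not taken in these alternative fits.

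Whether the sex difference depended on condition was tested with an interaction term in the same model. No member was called at an adjusted p of 0.05, beside 0% of all genes, and 5 high-side and 1 low-side genes had an unadjusted p under 0.05, beside 3.73% of all genes. Srsf10 (0.19, SE 0.075), Rb1 (0.25, SE 0.111), Zfp638 (0.17, SE 0.072) and Prpf4b (0.14, SE 0.064) were among the 5, each with a larger female minus male difference in spontaneous labor and an adjusted p of 0.999 from edgeR. Without spontaneous labor litter 2, the 6 members became 2, and the share of all genes was not taken there. For Chordc1 the interaction was 0.07 (SE 0.119, adjusted p = 0.999).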

How the data were processed

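RNA from 24 cortices was made into oligo-dT libraries. Per the labels' processing notes and the study's methods, the authors used bcl2fastq, aligned reads to Rnor_5.0 with STAR 2.0.4b and counted unique, unambiguous reads per Ensembl gene with featureCounts of Subread. Strandedness was not given in the sources used here. The authors deposited raw counts, CPM (counts scaled to a common total) and RPKM (CPM per kilobase of exons) for each pup. CPM chose the members, RPKM compared levels between genes, and only counts were tested. Condition and sex came from the labels and litter from file labels. The members and gene lists were chosen with earlier results of these data known.

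Genes over 1 CPM in at least 4 pups were tested with edgeR 4.0.16 (TMM, quasi-likelihood) in R 4.3.3, with a threshold of 0.05. Condition was tested on litter sums because the dam was assigned. The study's methods add surrogate variables, but how many, and over how many pups, was not settled here. The legend of its RNA-seq figure gives n = 6 per treatment condition, whereas 24 pups in all were analyzed here. The alternative used 24 pups and 6 variables. Alternatives used limma 3.58.1, sva 3.50.0 and DESeq2 1.42.0, left out each litter, or repeated the choice with Spearman's rho, other pseudocounts, limits or scaling. Tables used pandas 2.3.3 and numpy 2.4.6 under Python 3.11.15, and plots used matplotlib 3.10.9. The tests were also run on simulated counts, and the outcome is not given here. Totals of 12170547 to 19260066 counts set the counting precision. Named are Chordc1, the 10 symbols of largest absolute r per side, list genes and genes at the limits; the other named members were added after their values were seen. Columns of gene position and length came from the files. Gene symbols came from identifier and symbol pairs in the study's supplementary lists, which name 967 of 26404 genes.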

Additional observations from a re-analysis of the deposited data

Results flagged for a closer look

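In each litter of 4 pups, Chordc1 and the mean deviations of both sides were examined for a pup far from its litter mates by Dixon's ratio of gap to range at its 95% critical value, in 18 groups. Chance flags about 1 in 20 such groups, and 2 of the 18 were flagged. In saline pump litter 2, female pup 1 had a low-side mean of 0.00394 on the log2 scale, while its litter mates had 0.100 to 0.109. In spontaneous labor litter 1, male pup 2 had a high-side mean of 0.336, while its litter mates had 0.357 to 0.361, a gap that is small beside the distance to the other 20 pups.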

How the results depend on the processing

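The numbers of members called at an adjusted p of 0.05 were 0 for condition, sex and the interaction under each alternative that was run. For condition, the log2 fold change of Chordc1 turned from 0.29 to -0.0202 without spontaneous labor litter 1, and over the 6 litters left out it ranged from -0.02 to 0.47. Over the same 6, the median ranged from -0.02 to 0.21 on the high side and from -0.15 to 0.01 on the low side. With a litter left out, members with an unadjusted p under 0.05 numbered 0 to 13, with 13 without spontaneous labor litter 2 and 6 without saline pump litter 3. They numbered 24 in 24 pups without surrogate variables, 7 with them, 9 in limma with litter as a random effect and 3 in female pups alone. All genes called numbered 1 with surrogate variables. For sex, genes called were 7 as reported, 14 without saline pump litter 3, 15 with no filter on low counts and 16 in DESeq2, and members with an unadjusted p under 0.05 numbered 13 as reported, 0 with condition as the only covariate and 6 to 18 with a litter left out. For the interaction they numbered 6 as reported and 2 to 9 with a litter left out. Among litters left out, both were lowest without spontaneous labor litter 2. The cause of these changes was not tested. Under the alternatives, the share of all genes with an unadjusted p under 0.05 was not taken.

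Membership depended on the measure. Of 50 high-side and 50 low-side genes, Spearman's rho kept 27 and 28, deviations from litter means kept 16 and 5, and the 6 litter means kept 15 and 13. Leaving out 1 litter kept 23 to 38 and 19 to 40, lowest without spontaneous labor litter 1. Other pseudocounts, TMM scaling and a limit of 1 CPM kept 46 to 50. A limit of 20 CPM was not run, because Chordc1 itself falls under it.

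Chosen after seeing the data, the sides were drawn again and their properties compared. Without spontaneous labor litter 1, median exonic length was 4272 bp on the high and 1195 bp on the low side, and with deviations from litter means 4258 and 1863 bp. Median RPKM was 11.4 and 128 without that litter. With deviations from litter means it was 20.9 and 36.8, so that the high side then lay above the median of all genes (18.0).

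No paired analysis was possible between conditions because their litters come from different dams; sex was compared within litters. With 3 litters per condition, litter spread limits the comparison of conditions, and symbols for few genes limit what can be said of pathways and cell types.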
